A study of Mus musculus with 8 samples.

Results

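NRF2 (gene Nfe2l2), its inhibitor KEAP1 and 8 antioxidant genes that NRF2 is known to drive (Nqo1, Hmox1, Gclc, Gclm, Txnrd1, Srxn1, Gsr and Prdx1) were followed in the lactating mammary gland of mice with (wild type, WT) and without (knockout, KO) the factor Th-POK. The members were chosen by name as the factor, its inhibitor and well-known targets. All 10 genes were among the 14137 genes tested, and they were read by 15 probes, each well above background on all 8 arrays.

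The glands were No. 4 glands of C57/Bl6 dams at lactation day 1, with 4 WT dams and 4 dams that lacked the zinc finger factor Th-POK (gene Zbtb7b), and 1 dam per array. The deletion was in the germline, so it was shared by epithelium, fat, stroma and immune cells of the gland. RNA was labelled with Cy3 and hybridized to 1-colour Agilent mouse arrays, on which the brightness of a probe is the measurement. Each genotype had a slide of its own, so an effect of slide and an effect of genotype cannot be told apart.

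NRF2 is a basic leucine zipper factor that is made all the time and destroyed all the time. KEAP1, an adaptor of a CUL3 ubiquitin ligase, holds it in the cytoplasm and marks it for degradation, and oxidants or electrophiles that modify KEAP1 cysteines let NRF2 accumulate, pair with a small MAF protein and bind antioxidant response elements. Much of this control acts on protein, which an RNA array does not read. The lactating gland makes large amounts of lipid and protein, and NRF2 targets supply glutathione, reduced thioredoxin, quinone reduction and heme breakdown.

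The antioxidant response element is the DNA that joins these genes, and the matches near their start sites are shown for that reason. Windows of 300 bases, from 250 before to 50 after a gene's start, came from RefSeq (mouse build GRCm38.p6). These held 9 windows for 7 of the 10 genes, and none was found there for Hmox1, Gclc or Gsr. The core letters TGACNNNGC, searched on both strands, occurred in 5 of the 7 genes, against 14.0% of 27025 gene symbols with a window. The matches are printed 5′ to 3′ on the gene's strand with the core in capitals and 10 bases on either side. The Nfe2l2 match lay 240 bases before the start (chr2:75704885-75704913, minus strand), and it alone was in the gene's own orientation. The other matches were on the opposite strand of plus-strand genes. They lay 134 bases before the start of Gclm (chr3:122245413-122245441), 92 before that of Txnrd1 in 1 of its 3 windows (chr10:82859104-82859132), 29 after that of Srxn1 (chr2:152105542-152105570) and 133 before that of Prdx1 (chr4:116685456-116685484).
Nfe2l2: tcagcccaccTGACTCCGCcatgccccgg
Gclm: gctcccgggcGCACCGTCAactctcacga
Txnrd1: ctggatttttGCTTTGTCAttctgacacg
Srxn1: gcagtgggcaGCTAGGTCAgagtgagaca
Prdx1: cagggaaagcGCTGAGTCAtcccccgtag
The AP-1 letters TGANTCA, which share bases with the element, occurred in 2 of the 7 genes, Srxn1 and Prdx1, against 9.0% of gene symbols. In Prdx1 the core overlaps an AP-1 match. A match is a description of letters and not a measured binding site.

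Zbtb7b served as a check of the labels. Its log2 signal ran from 9.90 to 10.42 in WT and from 1.55 to 1.65 in KO glands, where it was not well above background, so it was at least 81.5-fold lower in KO glands (limma adjusted p = 5.71e-09). Between 66.8% and 75.3% of the probes of an array were well above background, and no spot was saturated. Of the 14137 genes, 2331 (16.5%) differed at an adjusted p under 0.05, of which 1065 (7.53%) were higher and 1266 (8.96%) lower in KO glands, and 3400 (24.1%) had genotypes that did not overlap. The count of 2331 fell to 518 at the lowest and rose to 3079 at the highest when arrays were left out in turn.

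Among the 10 genes, 1 was called, Hmox1, which fell in KO glands, and none was higher. That share stands beside the 16.5% of all genes that were called. At an unadjusted p under 0.05 the count was also 1. In 0 of the 10 did the WT and KO arrays separate without overlap, against 24.1% of all genes. The median difference, KO minus WT, was -0.17 on the log2 scale, with 7 of the 10 below 0, beside a median of -0.02 over all genes. The median size of the difference was 0.211 for these genes and 0.273 for all genes. Because whole glands were measured, fewer cells of a type and less RNA per cell cannot be told apart.

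**Figure D1:**
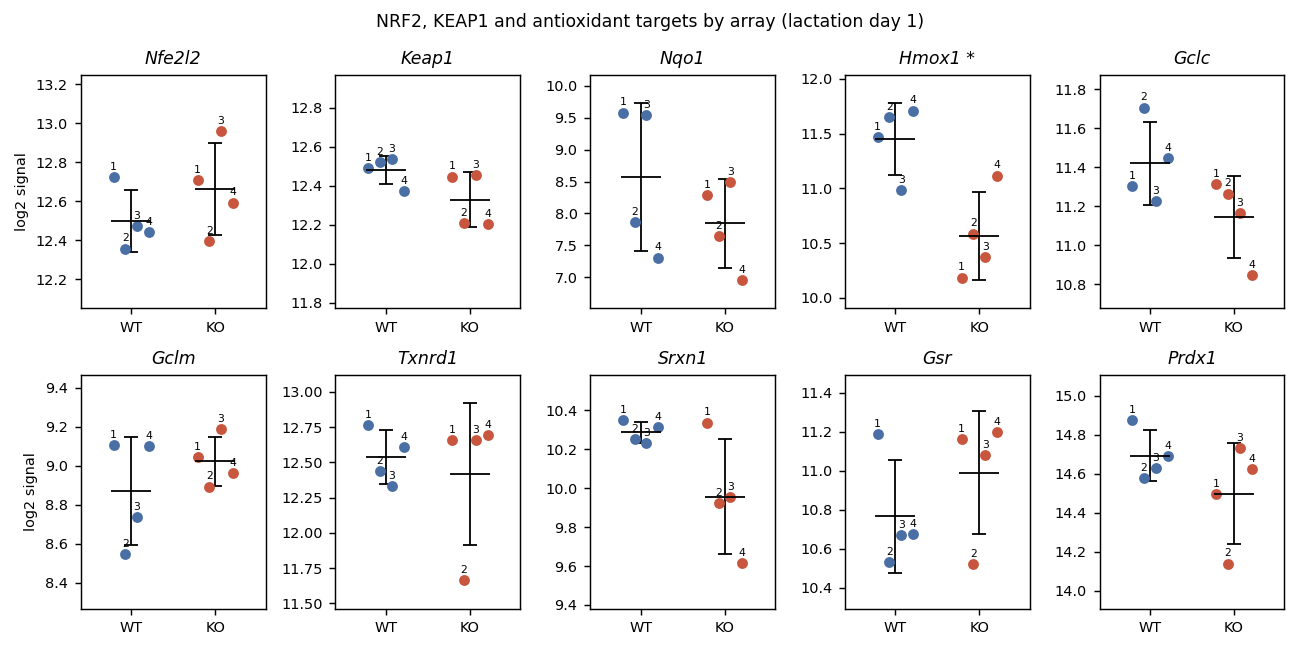
Log2 signal of the 10 genes on each array; the horizontal axis gives the genotype, points are arrays numbered 1 to 4 (WT blue, KO red), lines and bars are the mean ± SD of 4 arrays, the vertical scale differs between panels, and an asterisk marks an adjusted p under 0.05. The genotypes overlap in every panel, and only Hmox1 (mean 11.45 in WT and 10.57 in KO) carries the asterisk.

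Nfe2l2, the factor itself, gave log2 signals of 12.72, 12.36, 12.47 and 12.44 on WT arrays 1 to 4 and of 12.71, 12.40, 12.96 and 12.59 on KO arrays 1 to 4. The KO arrays spanned nearly the whole WT range and reached above it on array 3. The difference was +0.17 (SE 0.14, 95% interval -0.16 to 0.49, limma adjusted p = 0.434). It was smaller without KO array 3 (+0.07) or with scaling to the 75th percentile (+0.09), and larger without KO array 2 (+0.26). A second probe of Nfe2l2 read 12.12, 11.85, 11.93 and 11.96 in WT and 11.93, 11.81, 12.40 and 11.99 in KO glands, and again KO array 3 was the highest. Its difference was +0.07 (adjusted p = 0.755).

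Keap1, the inhibitor, was read at 12.49, 12.52, 12.54 and 12.37 in WT and at 12.45, 12.21, 12.46 and 12.20 in KO glands. KO arrays 2 and 4 lay below all WT arrays, and the other 2 lay within the WT range. The difference was -0.15 (SE 0.10, interval -0.39 to 0.09, adjusted p = 0.322). All 4 KO arrays were below the WT array of the same number, by 0.04 to 0.31. The labels do not say what a replicate number shares. Comparisons and blocks by number carry that limit here and below, and the comparisons are descriptions without a test.

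Hmox1, heme oxygenase 1, which opens the heme ring to biliverdin, iron and carbon monoxide, was read at 11.46, 11.65, 10.99 and 11.71 in WT glands. In KO glands it was 10.18, 10.59, 10.37 and 11.12. The genotypes overlapped by a single crossing, KO array 4 above WT array 3. The mean fell from 11.45 ± 0.33 to 10.57 ± 0.40 (SD, n = 4 each), a difference of -0.89 (SE 0.23, interval -1.42 to -0.36) or 1.85-fold, with a limma adjusted p = 0.0367. KO arrays were below the WT array of the same number in 4 of 4, by 1.28, 1.06, 0.61 and 0.59. The labels do not give this pairing.

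The Hmox1 call depended on most of the arrays. It was lost when WT array 1, 2 or 4 was left out (adjusted p = 0.0512, 0.100 and 0.0738) and when KO array 1, 2 or 3 was (0.0877, 0.0774 and 0.0982). Without WT array 3 (0.0398) or KO array 4 (0.0203) it held. The count of all genes called (2331) also moved. It was 3079, 762, 982 and 1807 without WT arrays 1 to 4, and 750, 957, 518 and 2293 without KO arrays 1 to 4. The Hmox1 difference stayed between -1.07 and -0.76 under all 18 alternatives, and its adjusted p ranged from 0.0203 to 0.100. Macrophages are a usual site of heme oxygenase 1 and red cells a source of heme, so their markers are given here. None of 5 macrophage markers was called by limma (0 also at an unadjusted p under 0.05), and each was well above background on every array. Their mean log2 signal ran from 10.50 to 11.24 in WT and from 10.69 to 11.52 in KO glands. The differences were -0.15 for Adgre1, +0.03 for Csf1r, +0.26 for Mrc1, +0.35 for Cd163 and +1.39 for Cd14. Cd14 was the brightest and most widely spread of the 5, so it weighs most in the range of the mean. Of 3 erythroid markers, Hba-a1 was higher (+1.16, adjusted p = 0.0474), and the mean of the list ran from 9.16 to 10.46 in WT and from 10.45 to 11.85 in KO glands. The Hba-a1 call was lost without any array except WT array 4 (adjusted p from 0.0607 to 0.113) and under the replicate block (0.0553). The part of these cells in the Hmox1 difference was not tested.

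Nqo1, the quinone reductase that is the classic readout of NRF2, varied most between dams. Its log2 signal was 9.58, 7.86, 9.53 and 7.31 in WT and 8.29, 7.65, 8.49 and 6.96 in KO glands. Arrays 1 and 3 stood above arrays 2 and 4 in both genotypes. The KO array was below the WT array of the same number in 4 of 4, by 1.29, 0.21, 1.04 and 0.35, a pairing that the labels do not give. Means were 8.57 ± 1.16 in WT and 7.85 ± 0.69 in KO (SD, n = 4 each). The difference of -0.72 (SE 0.57, interval -2.03 to 0.58, adjusted p = 0.390) lay within that spread, and the interval is the widest of the 10 genes. Single arrays moved it, to -0.39 without WT array 1, -0.40 without WT array 3, -0.43 without KO array 4 and -1.15 without WT array 4. Blocking on replicate number gave an adjusted p of 0.0610, again short of the threshold.

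The glutathione genes moved little. Gclc, the catalytic subunit of glutamate-cysteine ligase, which takes the limiting step of glutathione synthesis, was read at 11.30, 11.71, 11.23 and 11.45 in WT and at 11.31, 11.27, 11.17 and 10.85 in KO glands. Only KO arrays 3 and 4 lay below the WT range, and the difference was -0.27 (SE 0.15, interval -0.61 to 0.07, adjusted p = 0.218). Without KO array 4 or WT array 2 it was -0.17 or -0.18. Gclm, the modifier subunit of the same enzyme, gave 9.11, 8.54, 8.74 and 9.10 in WT and 9.04, 8.89, 9.19 and 8.96 in KO glands, with the KO arrays nearly inside the WT range. Its difference had the opposite sign, +0.15 (SE 0.15, interval -0.19 to 0.49, adjusted p = 0.504), and it was between 0.04 (without WT array 2) and 0.23 (without WT array 1) when an array was left out. Without KO array 3 it was 0.10, and without WT array 4 it was 0.23.

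Gsr, the reductase that returns oxidized glutathione to its reduced form, was 11.19, 10.53, 10.67 and 10.67 in WT and 11.16, 10.52, 11.08 and 11.20 in KO glands. WT array 1 stood with the higher KO arrays and KO array 2 with the lower WT arrays. The difference was +0.23 (SE 0.20, interval -0.22 to 0.67, adjusted p = 0.439), and it was +0.37 without WT array 1 and +0.38 without KO array 2. Its other probes gave +0.02 and +0.24, neither called.

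Of the thioredoxin genes, Txnrd1, the cytosolic thioredoxin reductase, read 12.77, 12.44, 12.33 and 12.61 in WT and 12.65, 11.66, 12.66 and 12.69 in KO glands. KO array 2 stood far below the other KO arrays, which lay within the WT range. The difference of -0.12 (SE 0.24, interval -0.66 to 0.43, adjusted p = 0.751) turned to +0.13 without KO array 2 (adjusted p = 0.525). Txnrd1 has 1 probe and 1 spot here, so that value has no second reading.

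Srxn1, sulfiredoxin, which repairs over-oxidized peroxiredoxins, was steady in WT glands at 10.35, 10.25, 10.23 and 10.31. In KO glands it was 10.34, 9.92, 9.95 and 9.61, with 3 of the 4 KO arrays below every WT array. The difference was -0.33 (SE 0.15, interval -0.67 to 0.01, adjusted p = 0.147). A pair of dimmer Srxn1 probes gave -0.16 and -0.07, so the size was not the same across probes. Taking the mean of the probes gave -0.19, and leaving out KO array 4 gave -0.22. As for Keap1, Hmox1 and Nqo1, the KO array was below the WT array of the same number in 4 of 4 (-0.01, -0.33, -0.28 and -0.70).

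Prdx1, a peroxiredoxin that Srxn1 can repair, was 14.87, 14.58, 14.63 and 14.69 in WT and 14.49, 14.14, 14.73 and 14.62 in KO glands. KO arrays 1 and 2 lay below the WT range. The difference was -0.20 (SE 0.14, interval -0.53 to 0.13, adjusted p = 0.359). It was -0.08 without KO array 2, -0.14 without WT array 1 and -0.34 with scaling to the 75th percentile.

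**Figure D2:**
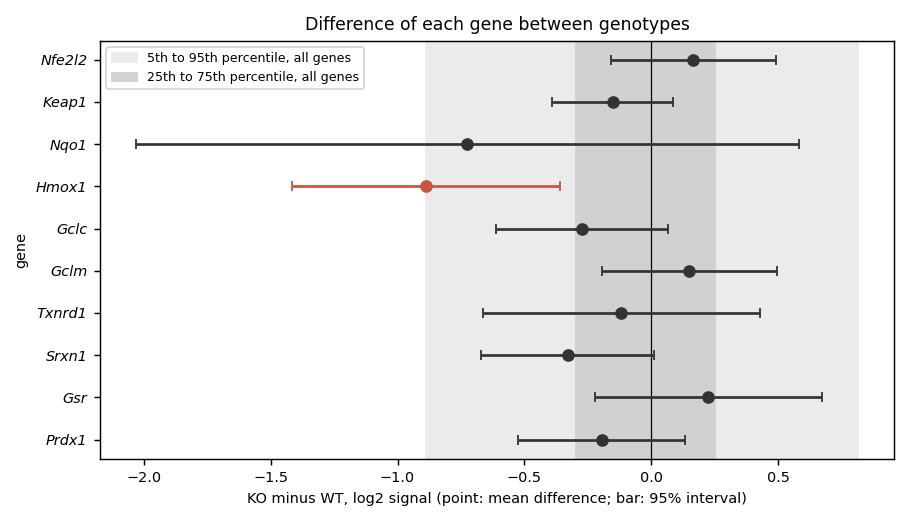
Difference between KO and WT glands (log2, horizontal axis) for each gene (vertical axis); points are mean differences, bars 95% intervals from limma (4 arrays each), red the gene with an adjusted p under 0.05, and grey bands the 5th to 95th and 25th to 75th percentiles of the differences of all 14137 genes. The interval of Hmox1 (-1.42 to -0.36) is the only 1 that stays on one side of 0, and that of Nqo1 (-2.03 to 0.58) is the widest.

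Some of the genes varied together across dams of the same genotype, and others did not. Taking each value as a deviation from its genotype mean, KO array 2 was the lowest KO array for 5 of the 10 genes and WT array 1 the highest WT array for 7. Over the 8 arrays, Txnrd1 and Prdx1 correlated at r = 0.92, Nfe2l2 and Prdx1 at r = 0.88, Txnrd1 and Gsr at r = 0.88 and Nfe2l2 and Gsr at r = 0.77. Nqo1 and Hmox1 ran opposite ways (r = -0.80), as did Keap1 and Hmox1. Of the 45 pairs, 32 had r above 0 and 13 below, with a median of 0.264, and Gclc was below 0 with 7 of the other 9 genes. These values are a description without a test: the 8 points share arrays, and anything that shifts a whole array would enter every gene. The genes outside the set whose values were most like the mean of the 10 z scores were Camk2g (r = 0.976), Xbp1 (0.966), Icam1 (0.962), Rabep2 (0.958) and Hs6st1 (0.950), each over the same 8 arrays. They were picked as the highest r among the 14137 tested genes outside the set. High values over only 8 arrays thus follow in part from the choice, and shared control was not tested.

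**Figure D3:**
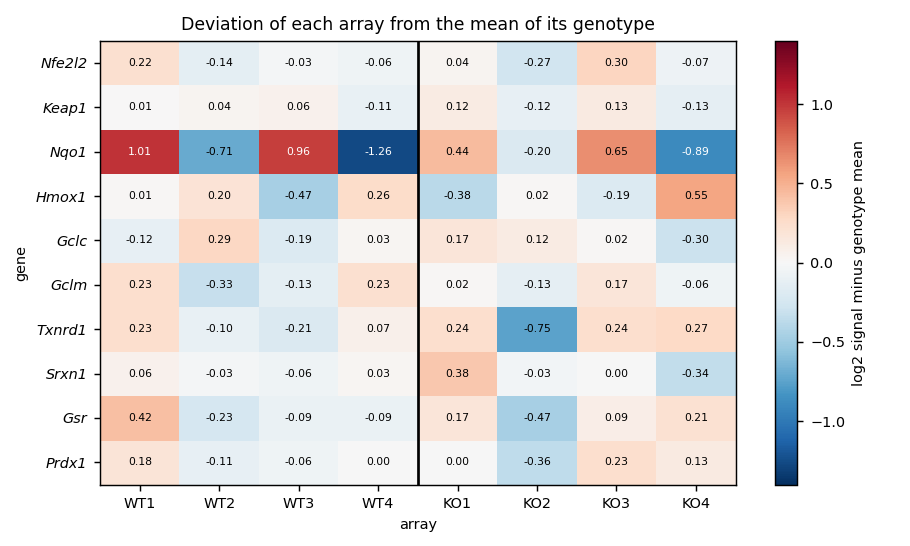
Deviation of each array (horizontal axis) from the mean of its genotype in log2 signal for each gene (vertical axis), with the value in each cell and a black line between WT and KO arrays. Nqo1 has the largest deviations and is positive on arrays 1 and 3 of both genotypes, and Txnrd1, Gsr and Prdx1 are among the genes with a negative value on KO array 2.

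Genes around this axis were described by 8 lists: regulators and partners of NRF2, glutathione supply, glutathione S-transferases, thioredoxins, quinone and carbonyl detoxification, heme and iron, NADPH supply, and superoxide and peroxide. Of their 122 genes, 110 were tested, 12 were higher and 4 lower in KO glands. The 16 called genes are 14.5% of those tested, near the 16.5% of all genes. By list, the share called ran from 0% (NADPH supply) to 27.8% (glutathione S-transferases). The 110 tested genes had a median difference of 0.06, and in 28 (25.5%) the genotypes did not overlap, near the 24.1% of all genes. All 16 called genes had WT and KO arrays that did not overlap. As the calls came from the same arrays, that separation adds no support to them.

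Among 15 regulators and partners of NRF2, 3 were higher in KO glands and none lower. That is 20% called, near the 16.5% of all genes called in either direction. The list median was 0.35 beside -0.02 over all genes, and the list mixes activators, repressors and ligase parts. Bach2, a repressor that competes with NRF2-type factors for related DNA sites, read 9.56, 8.22, 8.81 and 8.60 in WT and 10.34, 10.43, 11.13 and 10.83 in KO glands. It rose by 1.89 (SE 0.29, limma adjusted p = 0.0106), and this call held in all 18 alternatives. Bach1, the heme-sensitive repressor of Hmox1, read 10.95, 10.29, 10.37 and 10.47 in WT and 11.45, 11.01, 11.26 and 11.02 in KO glands. Every KO array was above every WT array, and the rise of 0.66 (SE 0.17) had an adjusted p = 0.0357. Nfe2l3, a relative of NRF2, was 9.95, 7.15, 9.01 and 8.51 in WT and 11.12, 10.25, 10.74 and 10.75 in KO glands, higher by 2.06 (SE 0.52, adjusted p = 0.0329). The WT arrays of Nfe2l3 were widely spread and the KO arrays close together, and its second probe differed by only +0.39 (adjusted p = 0.109). The Bach1 call was lost without WT array 2, 3 or 4 or KO array 1, 2 or 3 (adjusted p from 0.0609 to 0.0969), and that of Nfe2l3 without WT array 3 or 4 or any KO array (0.0530 to 0.0843). The relative Nfe2l1 and the small MAF gene Mafk were not called, but under a replicate block their adjusted p was 0.0372 and 0.0462, both higher in KO glands (+0.45 and +0.38).

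B lymphocytes are a known site of Bach2, so B cell markers are given beside it. Of 4 such markers, Cd79b was higher, none was lower, and their mean log2 signal ran from 5.74 to 6.29 in WT and from 5.84 to 6.42 in KO glands. Cd79a was well above background on 1 of the 4 KO arrays and on all WT arrays, and the other 3 markers on all 8. The Cd79b call was lost without WT array 1, 2 or 4 or any KO array (adjusted p from 0.0574 to 0.0874) and under the replicate block (0.0744). The part of B cells in the Bach2 difference was not tested.

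In the list of glutathione supply and peroxidases, 17 of 18 genes were tested, 2 fell and none rose, and the median was -0.19. Glrx, glutaredoxin 1, which removes glutathione from proteins, was 9.97, 10.59, 10.82 and 9.95 in WT and 8.73, 9.37, 9.57 and 9.32 in KO glands, a fall of 1.08 on the log2 scale (SE 0.25, adjusted p = 0.0275). Chac2, which breaks down glutathione, read 8.11, 8.65, 8.25 and 8.94 in WT and 7.32, 7.71, 7.70 and 7.95 in KO glands, a fall of 0.82 on the log2 scale (SE 0.21, adjusted p = 0.0341). In both genes every KO array lay below every WT array. The Glrx call was lost without WT array 2 or 3 or KO array 1, 2 or 3 (adjusted p from 0.0559 to 0.0768), and that of Chac2 without those or WT array 4 (0.0569 to 0.0926). Gss, glutathione synthetase, was not called (-0.49, adjusted p = 0.0529), and had an adjusted p = 0.0491 under the replicate block.

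Glutathione S-transferases join glutathione to electrophiles, and many are NRF2 targets. Of 21 genes in this list 18 were tested, 5 were higher in KO glands and none lower, with a median of 0.31. The 5 calls are 27.8% of those tested, beside 16.5% of all genes called in either direction and 7.53% called higher. Gstt1 was 7.24, 7.19, 7.54 and 7.06 in WT and 9.14, 8.39, 8.69 and 8.33 in KO glands, a rise of 1.38 (SE 0.19, adjusted p = 0.00818) that was called in all 18 alternatives. Mgst2, a microsomal member, was 8.40, 8.67, 9.43 and 9.90 in WT and 10.65, 10.77, 10.08 and 10.07 in KO glands. It rose by 1.30 (SE 0.34, adjusted p = 0.0363), with the WT arrays spread over more than the KO arrays. Gstm1 rose by 0.64 (adjusted p = 0.0346), Gstt3 by 0.63 (0.0386) and Gstm3 by 0.54 (0.0485).

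These smaller rises were less firm. The calls of Gstm1, Mgst2, Gstt3 and Gstm3 were all lost without WT array 2 or without KO array 1, 2 or 3. Those of Gstm1 and Gstm3 were also lost without WT array 3 or 4, that of Mgst2 without WT array 3, that of Gstt3 without WT array 1 or 4, and that of Gstm3 without KO array 4 (adjusted p from 0.0517 to 0.124 over all of these). Under the replicate block, Mgst2 (adjusted p = 0.0644) and Gstt3 (0.0533) were not called. A second Gstm1 probe differed by +0.34 (adjusted p = 0.152). The Gstm genes are close in sequence, so their probes may read more than 1 of them.

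Among 17 thioredoxins, peroxiredoxins and sestrins, 1 rose and 1 fell, with a median of 0.13. Sesn3, a stress-responsive sestrin, read 10.04, 9.24, 10.12 and 10.01 in WT and 11.31, 10.43, 10.94 and 10.88 in KO glands, higher by 1.04 (SE 0.24, adjusted p = 0.0279). Prdx3, the mitochondrial peroxiredoxin, read 12.92, 13.28, 13.04 and 13.35 in WT and 12.63, 12.72, 12.51 and 12.74 in KO glands, and fell by 0.50 on the log2 scale (SE 0.12, adjusted p = 0.0328). For Sesn3, WT array 2 stood far below the other WT arrays, and all WT arrays lay below all KO arrays. The Sesn3 call was lost without WT array 2 or KO array 1 or 3 (adjusted p from 0.0547 to 0.0757), and that of Prdx3 without WT array 2, 3 or 4 or KO array 1, 2 or 3 (0.0614 to 0.0941). Msra, a methionine sulfoxide reductase, was not called (-0.40, adjusted p = 0.0610) except under the replicate block (0.0399).

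Of 21 genes for quinone and carbonyl detoxification and export, 15 were tested and 1 was called, with a median of 0.14. It was Ephx1, microsomal epoxide hydrolase, at 10.23, 9.41, 10.07 and 9.98 in WT and 11.02, 10.41, 10.87 and 10.40 in KO glands, higher by 0.75 (SE 0.22, adjusted p = 0.0469). The call was lost without WT array 2, 3 or 4 or KO array 1, 2 or 3 (adjusted p from 0.0673 to 0.119), although a second probe gave +0.72. Aldh7a1 and Ptgr1 had an adjusted p = 0.0349 and 0.0415 under the replicate block, both higher in KO glands, and were not called without it.

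In the heme and iron list, 1 of 9 genes was higher, none lower, and the median was 0.19. Slc40a1, ferroportin, which exports iron from cells, was 9.08, 7.72, 9.30 and 8.45 in WT and 10.44, 9.87, 10.50 and 10.33 in KO glands. The rise of 1.65 (SE 0.33, adjusted p = 0.0191) was opposite in sign to the difference of Hmox1, whose product releases iron. Its call was lost without KO array 1 or 3 (adjusted p from 0.0532 to 0.0581). The heme transporter Slc48a1 was lower (-0.54) only under the replicate block (adjusted p = 0.0474). The macrophage and erythroid values given beside Hmox1 apply here too, and their part in the ferroportin difference was not tested.

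None of the 6 NADPH genes tested was called by limma (2 at an unadjusted p under 0.05), although their median of -0.46 was the lowest of the lists. The smallest p belonged to Idh1 (+0.34, adjusted p = 0.0600), which was called with the normexp background correction (adjusted p = 0.0441). Under the replicate block, 3 enzymes of the pentose phosphate pathway were called, each lower in KO glands. They were G6pdx (-0.54, adjusted p = 0.0276), Pgd (-0.64, 0.0298) and Tkt (-0.56, 0.0334). Without the block none of them was called (adjusted p = 0.265, 0.0668 and 0.321). These enzymes were chosen after their values were seen, and the labels do not say what a replicate number shares. For G6pdx and Tkt, the odd-numbered arrays lay below the even-numbered arrays in both genotypes, so their results do not single out the replicate numbers. Pgd showed that split in WT glands only. A change of the pathway as a whole was not tested.

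In the superoxide and peroxide list, 13 of 14 genes were tested, with a median of -0.04. Nox4, an NADPH oxidase that makes hydrogen peroxide, had the largest difference of the 8 lists, from 5.90, 5.34, 5.62 and 5.92 in WT to 9.01, 7.69, 8.55 and 8.61 in KO glands. Every KO array was far above every WT array, and the rise of 2.77 (SE 0.27, adjusted p = 0.00232) was called in all 18 alternatives. A second Nox4 probe rose by 1.21. Sod2, the mitochondrial superoxide dismutase, was 15.17, 15.21, 14.91 and 15.40 in WT and 14.45, 14.71, 14.46 and 14.84 in KO glands, and fell by 0.56 on the log2 scale (SE 0.14, adjusted p = 0.0328). That call was lost without WT array 2 or 4 or KO array 1, 2 or 3 (adjusted p from 0.0624 to 0.0938). Duox1 was called only under the replicate block (-0.84, adjusted p = 0.0406).

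**Figure D4:**
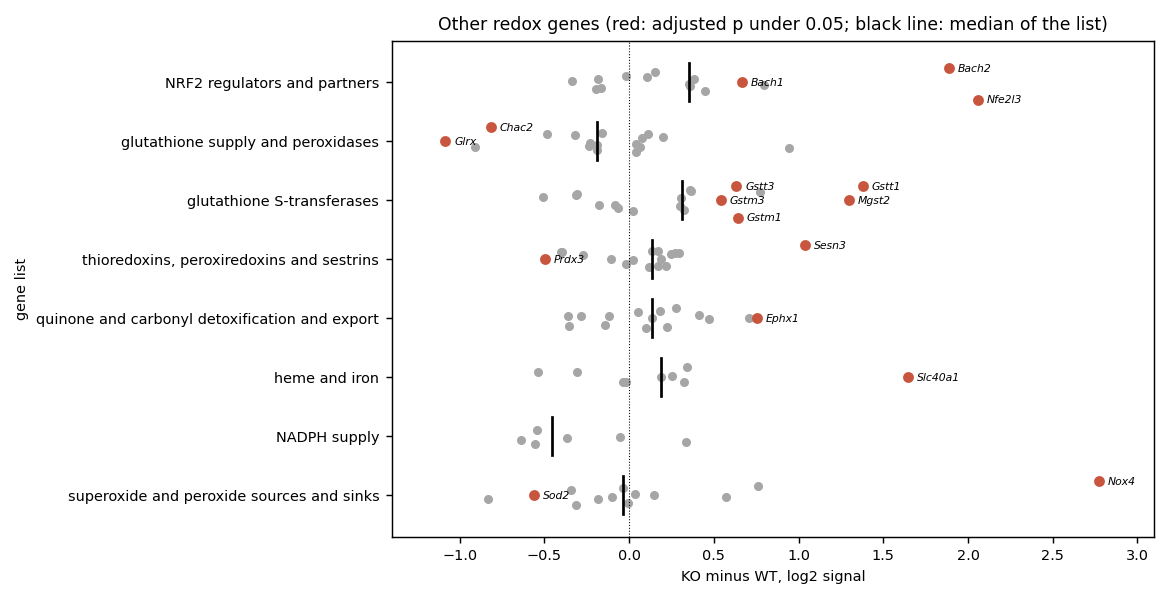
Difference between KO and WT glands (log2, horizontal axis) for the 110 tested genes of 8 redox lists (vertical axis); each point is a gene, red with its name where the adjusted p was under 0.05, grey otherwise, the black line is the median of the list, and vertical position within a list carries no value. Red points lie to the right in the lists of regulators and glutathione S-transferases, and Nox4 stands farthest out at 2.77.

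**Figure D5:**
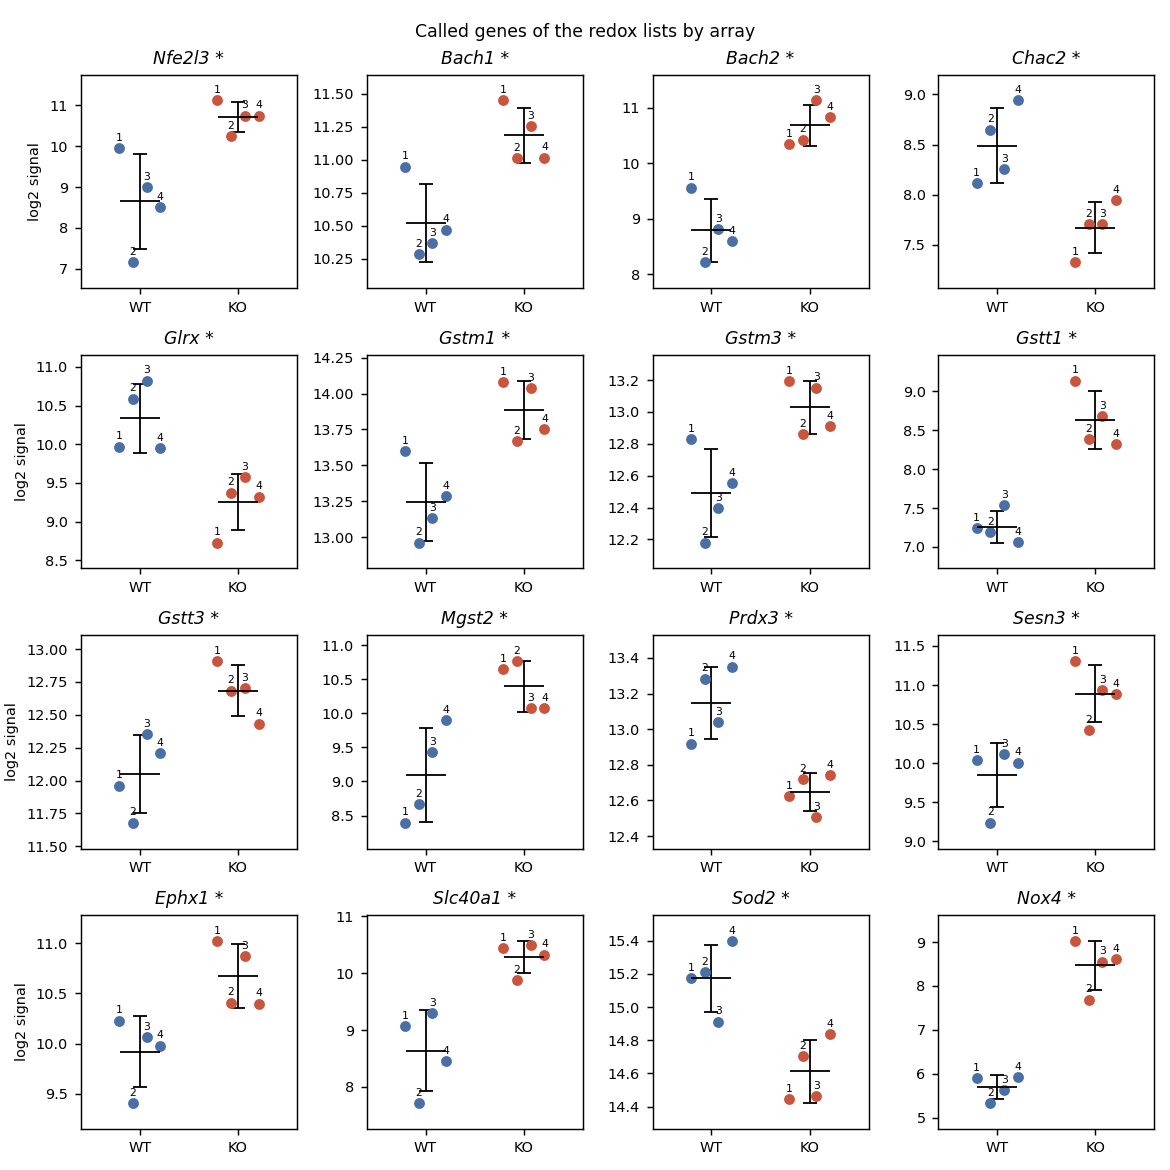
Log2 signal of the 16 called genes of the redox lists on each array; the horizontal axis gives the genotype, points are arrays numbered 1 to 4 (WT blue, KO red), lines and bars are the mean ± SD of 4 arrays, the vertical scale differs between panels, and every panel carries the asterisk of an adjusted p under 0.05. In all 16 panels the WT and KO arrays, from which the calls were made, are apart, with the widest gap for Nox4.

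Of 52 tested markers of cell types in the gland, 11 were called (21.2%, beside 16.5% of all genes), 9 higher and 2 lower in KO glands. Of 6 luminal markers, Cdh1, Krt18 and Epcam were called higher in KO glands. Krt8 (+0.46), Krt19 (+0.26) and Elf5 (-0.35) were not called, and Elf5 alone was lower. The mean of the list ran from 14.25 to 14.71 in WT and from 14.81 to 15.00 in KO glands. Of 4 neutrophil markers, Camp and Ngp were at least 8.54-fold and 7.11-fold higher (adjusted p = 0.000300 and 0.00450), and were not well above background on any WT array. They entered the test through the KO arrays alone. Their adjusted p, and a mean over the list, would rest in WT glands on values not well above background. The 11 called markers include these genes. The other neutrophil markers were above background on all arrays and were not called: S100a8 ran from 10.15 to 11.52 in WT and from 10.79 to 12.14 in KO glands, and S100a9 from 8.68 to 12.16 and from 12.34 to 13.75 (adjusted p = 0.357 and 0.0566). Fibroblast (1 of 5, Dcn) and adipocyte (1 of 6, Plin1) markers had higher calls, and T cell markers (2 of 5, Cd3e and Cd4) lower ones. None of the 5 basal, 4 endothelial or 5 milk protein markers was called by limma (1, 1 and 0 at an unadjusted p under 0.05). The fibroblast mean ran from 13.55 to 13.77 in WT and from 13.88 to 14.45 in KO, the adipocyte mean from 12.50 to 13.28 and from 12.99 to 13.27, and the T cell mean from 6.19 to 7.29 and from 6.18 to 6.50. Calls of Krt18, Plin1, Cd3e, Cd4, Cd79b and Dcn were each lost without WT array 2 and without KO array 1, 2 or 3. The call of Cdh1 held whichever array was left out. Those of Camp and Ngp held too, but their dim WT values mean that this does not show how firm they are. Under the replicate block Cd4 was not called (adjusted p = 0.0596). The part of these cell types in the differences of the redox genes was not tested.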

How the data were processed

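Mammary gland RNA of 4 WT and 4 KO dams was measured on 8 Agilent 1-colour arrays, grouped by the sample labels. The authors deposited the scanner output of Agilent Feature Extraction (version 10.7 per the submitters' processing notes), in which the intensity of each spot was already background-subtracted but not scaled between arrays, and a table of log2 values that they had quantile-normalized, used here as an alternative only. Its columns correlated with the log2 intensities of the same arrays at r of 0.999 or more for 7 arrays and had a median of 6.32.

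The log2 of each processed intensity, control spots excluded, was quantile-normalized across the 8 arrays (limma 3.58.1, R 4.3.3). Outlier spots as marked by the software were dropped and the rest averaged by probe, giving 41174 probes. Accessions named 27479 of them (18749 symbols) through RefSeq. Probes had to be well above background on every array of WT, of KO or of both, the brightest probe stood for a gene, and 14137 genes were tested with lmFit and eBayes and Benjamini-Hochberg adjustment. "Called" means an adjusted p under 0.05. A fold against a genotype not above background is a lower limit, computed against each dim array's own signal or, where higher, the lowest signal it gave for a probe well above background. The number of arrays limits the precision. The test was checked on simulated data.

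The members and lists were chosen with earlier results of these data known. Named genes were all 10 members with their probes, up to 5 called genes of each list (or that with the smallest p), the 5 genes most like the members across arrays and up to 2 called markers per cell type. Genes named for a change under the replicate block were chosen after their values were seen. So were Krt8, Krt19, Epcam, Elf5, Cd79a, S100a8, S100a9 and the macrophage markers. Replicate numbers 1 to 4 occur in both genotypes. Deviations from the genotype means correlated between same-numbered arrays at r of 0.16 to 0.30, and the arrays were taken as pairs on that ground, although the labels do not say what a number shares. Differently numbered arrays correlated as well where both were odd or both even (WT array 1 with KO array 3 at 0.34, 3 with 1 at 0.26, 2 with 4 at 0.24 and 4 with 2 at 0.11), and all other pairs were below 0, so these values show a split of arrays 1 and 3 from 2 and 4 and do not single out the numbers. Results under the block carry that limit. The normexp alternative used the median spot signal and the median background signal with an offset of 50.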

Additional observations from a re-analysis of the deposited data

Results flagged for a closer look

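Within a genotype of 4 arrays, 4 values of the 74 groups examined lay far from the other 3, where chance gives about 1 in 20 groups. Txnrd1 was 11.66 on KO array 2 and between 12.65 and 12.69 on the other KO arrays. Sesn3 was 9.24 on WT array 2 and between 10.01 and 10.12 on the other WT arrays. The luminal marker Krt18 was 16.58 on KO array 4 and between 16.99 and 17.02 on the others. The neutrophil marker Ngp was 3.78 on WT array 2 and between 1.93 and 2.21 on the others, and none of these 4 values was well above background.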

How the results depend on the processing

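Of the 180 alternative values of the 10 genes (18 alternatives each), 8 lost a call, all of Hmox1, and 1 changed sign. That was Txnrd1 without KO array 2 (+0.13, against -0.21 without KO array 4). Its value on KO array 2 was far below those on the other KO arrays, and the cause of that low value was not tested. The count of called genes among the 10 was 0 without a filter on dim probes and 0 under the methods' t-test (adjusted p of Hmox1 0.0557 and 0.0769), and 0 to 1 when each array was left out in turn. Among all genes the called count of 2331 became 1389 under the methods' t-test (4765 at an unadjusted p under 0.05) and 518 to 3079 with an array left out. Without a filter 1766 of 18717 genes were called, and with the replicate block 2762 of 14137. In the redox lists the 16 calls became 8 (of 114 tested) without a filter, 4 under the methods' t-test and 3 to 21 with an array left out. With the replicate block 25 of 110 list genes were called, where the count of all genes rose as well, from 2331 to 2762. Hmox1 had an adjusted p of 0.0213 under the block. Beside the list genes named above as changed, the block moved no call of the 10 genes or the lists. The 16 called list genes had 96 of 288 alternative values past the threshold no longer, and none changed sign; Bach2, Gstt1 and Nox4 lost none. Without a filter Nfe2l3, Bach1, Chac2, Gstm1, Mgst2, Gstt3, Gstm3 and Ephx1 lost their calls, and under the methods' t-test all 16 did except Bach2, Gstt1, Prdx3 and Nox4. The methods' t-test, like limma, called 0 of the NADPH, macrophage, basal, endothelial and milk protein genes. Scaling to the 75th percentile ended the calls of Gstt3 and Gstm3. Idh1 was called with the normexp correction only (0.0441). The 4 arrays a genotype and the spread between dams set the width of the intervals.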

Other observations

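Several genes of the lists shared the split of Nqo1 between arrays 1 and 3 and arrays 2 and 4 in both genotypes. They were chosen after their values were seen. Ftl1, the ferritin light chain, was 14.72 and 14.58 on WT arrays 1 and 3 and 13.45 and 13.44 on WT arrays 2 and 4. In KO glands Ftl1 was 14.96 and 14.65 on arrays 1 and 3 and 13.79 and 14.15 on arrays 2 and 4, so it ran the same way as Nqo1. Ggt1, which starts the breakdown of glutathione outside cells, ran the other way, at 9.68 and 9.79 on WT arrays 1 and 3 and 11.13 and 11.25 on WT arrays 2 and 4. On the KO arrays Ggt1 was 9.65 and 9.73 against 11.55 and 11.17, and its difference between genotypes was +0.06 (limma adjusted p = 0.944). What arrays 1 and 3 share was not given in the sources used here.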
